A study of Mus musculus with 2 samples.

Results

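The genes described here encode the constitutive proteasome of the mouse. Every gene whose symbol in both count tables starts with Psma, Psmb, Psmc or Psmd followed by a digit was taken, without the interferon-inducible catalytic subunits Psmb8, Psmb9 and Psmb10. The rule gave 37 of the 21018 genes that both tables list, and it used no measured value. Of these, 31 are subunits of the standard 26S proteasome, Psmd5, Psmd9 and Psmd10 are chaperones of base assembly, Psma8 and Psmb11 are 20S subunits of restricted tissues, and Psmc3ip encodes the meiotic recombination factor Hop2, which is named for its binding to the ATPase Psmc3 and is no subunit.

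The tissue was the whole ovary of C57BL pups at postnatal day 3, measured by droplet single-cell RNA-seq of transcript 3′ ends (10x Genomics). In 1 group, labelled DEHP_MLT, the mother received the plasticiser di(2-ethylhexyl) phthalate (DEHP) by gavage daily from embryonic day E16.5 to postnatal day 3, and melatonin (MLT) later on each day; doses are not in the labels. In the other, labelled MLT, DMSO took the place of DEHP and melatonin was given in the same way, so both groups carry melatonin, and no group without it was analysed here. Each group is 1 library, and the sources used here do not say how many pups went into it. The name of each deposited count table carries the other group's label; the sample titles were followed, and every direction between the libraries would turn round if the table names were right. With 1 library a group there is no replicate spread and no test: the intervals below are exact 95% intervals for counting error only.

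The library labelled MLT kept 5199 of 5277 barcodes and the library labelled DEHP_MLT 4819 of 4819, with 80657690 and 117355739 unique molecular identifiers (UMIs) in all deposited barcodes. The median depth of deposited barcodes was 10834 and 13161 UMIs, and the libraries share 4 barcode sequences. The smallest deposited barcode held 2031 and 6923 UMIs, so the depth floor of the deposited tables differed between the libraries. Classes were set by marker genes, and a barcode that passed the gates of several classes was left out, which removed 273 and 196 barcodes. Markers outside the gates matched the class names: the 4 germ check genes Ddx4, Zp3, Nobox and Taf4b summed to 6.87 and 6.20 UMIs per 10,000 in germ cells (MLT, then DEHP_MLT) and to 0.704 and 0.604 in granulosa cells, and the 4 collagen and matrix check genes to 79.2 and 82.0 in stroma.

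The 26S proteasome degrades proteins marked with ubiquitin. Its 20S core is a barrel of stacked α and β rings, and the β subunits Psmb5, Psmb6 and Psmb7 carry the proteolytic sites; the 19S cap holds a ring of ATPases (Psmc) that unfold the substrate and non-ATPase subunits (Psmd) that bind and deubiquitinate it. Interferon makes cells put Psmb8, Psmb9 and Psmb10 in place of Psmb5, Psmb6 and Psmb7, which gives the immunoproteasome that supplies peptides for antigen presentation. In the newborn ovary, oocytes arrested late in meiotic prophase are enclosed by granulosa cells as germ cell cysts break into primordial follicles.

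The promoter of Psmb5 and a site of Psmb8 are shown because these genes encode the constitutive and the inducible form of the same catalytic site and are set side by side in the Cd74 results. Sequences are from RefSeq on GRCm38.p6 in the direction of transcription. For Psmb5 they are the 223 bases at chr14:54618023-54618245 on the minus strand, the 250 bases before the RefSeq start less the 27 that a GENCODE exon of the gene holds. For Psmb8 they are the site with 10 flanking bases on each side at chr17:34198088-34198116 on the plus strand. Capitals mark a match to TGACNNNGC, the core letters of the antioxidant response element, in Psmb5 and to TTCNNNGAA, the letters of the gamma-activated site, in Psmb8.
Psmb5: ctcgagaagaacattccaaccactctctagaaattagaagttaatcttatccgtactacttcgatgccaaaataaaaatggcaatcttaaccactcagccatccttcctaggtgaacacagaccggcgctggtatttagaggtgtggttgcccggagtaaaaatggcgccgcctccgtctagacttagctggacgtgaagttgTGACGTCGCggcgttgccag
Psmb8: tcctccgctgTTCCCAGAAgatgcccccc
The match in Psmb5 lay 47 to 39 bases before the RefSeq start and that in Psmb8 97 to 89 bases before it. The Psmb8 start differs between annotations: no GENCODE transcript of the gene starts where the RefSeq one does. Of 2 GENCODE transcripts that span this site, 1 holds it in a UTR, so the distance holds for RefSeq only. The letters TGACNNNGC were present in 16.7% of the members' windows and in 14.0% of all genes, so a match does not set these genes apart. They also matched close before the RefSeq starts of Psmb6 and Psmd9, shown with the same flanks. In Psmb6 the first base lay 9 bases before the start (chr11:70525338-70525366, plus strand). In Psmd9 it lay 31 bases before the start (chr5:123228149-123228177, plus strand, within an intron of 1 GENCODE transcript).
Psmb6: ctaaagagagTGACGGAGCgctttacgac
Psmd9: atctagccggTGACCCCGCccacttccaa

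RefSeq windows from 250 bases before to 50 after the start were found by symbol for 30 of the 37 genes and for 27025 genes in all, and were searched on both strands for 5 motifs, none of whose matches overlapped each other in these genes. TGACNNNGC was present in 5 of the 30 windows (16.7%; Psmb5, Psmb6, Psmc6, Psmd12 and Psmd9), against 14.0% of all genes. TTCNNNGAA was present in 1 of 30 (3.33%; Psmd2), against 9.55% of all genes, and in Psmb8 but in neither Psmb9 nor Psmb10. The core of the interferon-stimulated response element, GAAA and GAAA with 2 free bases between them, was in 3 of 30 (10%; Psmb3, Psmd4 and Psmd9), against 3.99%. CCGGAAG, an ETS-family site, was in 11 of 30 windows (36.7%; Psma6, Psmc1, Psmc2, Psmc3ip, Psmc6, Psmd11, Psmd12, Psmd13, Psmd2, Psmd4 and Psmd6) and in 9.93% of all genes. The site of nuclear respiratory factor 1, GCGCA and GCGC with 1 free base between them, was in 6 of 30 (20%; Psma2, Psma3, Psma4, Psmc4, Psmc5 and Psmd14), against 5.19%. For Psma4 and Psmc5, the end of the RefSeq window was not found near the start of any GENCODE transcript of the gene. These are matches of letters in a window, and no binding was measured.

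Germ cells carried the highest summed level of the 37 genes among the gated classes in both libraries. A level is the UMIs of a gene or list per 10,000 UMIs of the class, and the classes below are given as MLT, then DEHP_MLT. Germ cells (284 and 754 cells) held 82.7 (82.1 to 83.3) and 86.7 (86.4 to 87.0) proteasome UMIs per 10,000, and granulosa cells (706 and 353 cells) held 54.0 (53.6 to 54.3) and 42.3 (41.9 to 42.7). Stromal cells (2297 and 1855) held 53.3 (53.0 to 53.6) and 51.3 (51.1 to 51.6). Immune cells (168 and 66) held 63.0 (61.8 to 64.3) and 38.7 (37.3 to 40.1), the class with the widest gap between the libraries among these 4. Endothelial cells held 49.1 and 43.7 and perivascular cells 53.4 and 51.9. Erythroid cells were lowest, at 11.8 (26 cells) and 34.4 (597 cells), the widest gap of the 7 classes.

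**Figure D1:**
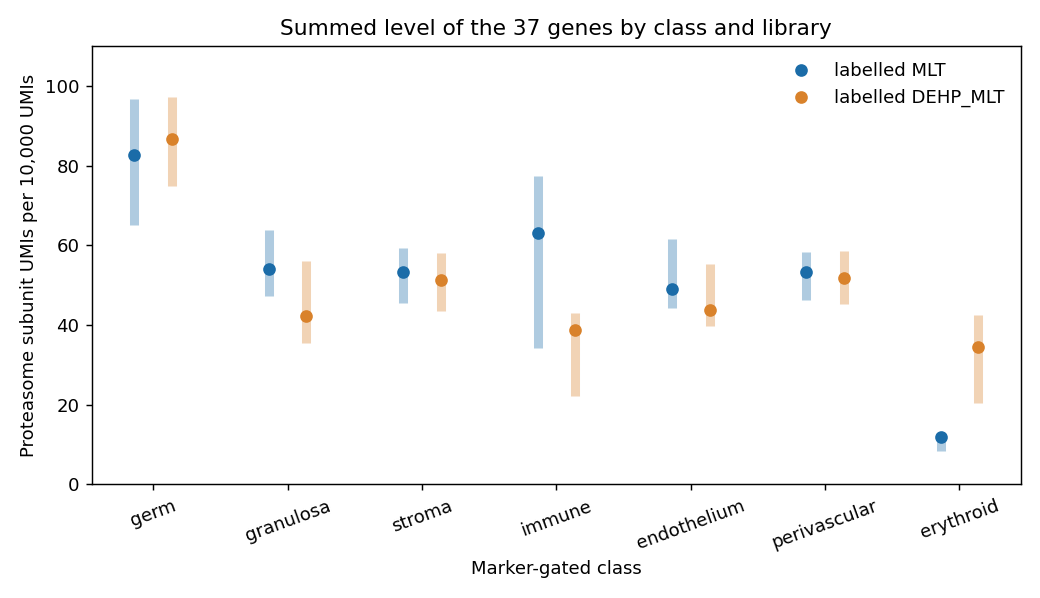
Summed level of the 37 genes (y axis, UMIs per 10,000 UMIs) in 7 marker-gated classes (x axis) in each library. Points are the pooled level of the class and pale bars the 25th to 75th percentile of single cells; germ cells sit at 82.7 and 86.7, above the other classes in both libraries.

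Single cells of the germ and granulosa classes were also shifted apart, but their ranges overlapped. The quartiles of germ cells were 65.1 and 96.7 in the library labelled MLT, and 74.8 and 97.1 in that labelled DEHP_MLT. For granulosa cells the quartiles were 47.3 and 63.9, and 35.5 and 56.1, so the lower quartile of germ cells was above the upper quartile of granulosa cells in each library. The 5th to 95th percentiles overlapped. They were 44.1 to 118 in germ and 33.3 to 82.4 in granulosa cells with the label MLT. With the label DEHP_MLT they were 59.5 to 111 and 25.2 to 71.2. Immune cells spread most, from 34.2 to 77.3 in the library labelled MLT. The depth of the classes differed: germ cells had medians of 7676 and 55572 UMIs. Within the library labelled DEHP_MLT, granulosa cells split by depth into equal parts, from shallow to deep, had 52.3, 47.7 and 38.2 proteasome UMIs per 10,000, and germ cells 86.0, 83.6 and 88.5. Germ cells were above granulosa cells in every such part of both libraries, at no less than 74.98 against no more than 56.6.

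The excess in germ cells was spread unevenly over the subunits. Summed, germ over granulosa was a log2 difference of 0.62 (0.60 to 0.63), or 1.53-fold, with the label MLT; it was 1.04 (1.02 to 1.05), or 2.05-fold, with the label DEHP_MLT. Of the 37 genes, 35 had a mean level of at least 0.2 per 10,000 over both classes; Psma8 and Psmb11 did not. In the library labelled MLT 17 of the 35 were at least 1.5-fold higher in germ cells, where 33.7% of 7150 genes were, and 1 of 35 was at least 1.5-fold lower, where 31.1% of genes were. In the library labelled DEHP_MLT 28 of 35 were at least 1.5-fold higher, where 36.6% of 6807 genes were, and 0 were 1.5-fold lower, where 29.7% of genes were. The same 17 members passed 1.5-fold in both libraries, against 32.8% of 6649 genes. The median log2 ratio of the members was 0.54 and 1.08, against 0.07 and 0.12 over all genes.

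The ATPases of the 19S base were the most even group. All 6, Psmc1 to Psmc6, were higher in germ than in granulosa cells in each library, 5 of 6 and then 6 of 6 by 1.5-fold. Their summed level was 13.1 and 13.1 per 10,000 in germ cells and 6.99 and 4.63 in granulosa cells, a log2 ratio of 0.91 and 1.495. Psmc5 had levels of 2.42 and 2.42 in germ cells and 1.13 and 0.727 in granulosa cells (log2 1.09 and 1.72). Psmc4 had the smallest ratio of the 6, at 0.53 and 1.16. Set against stroma, the ATPases summed to a log2 ratio of 0.81 and 0.97, again with 5 and 6 of 6 past 1.5-fold.

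The non-ATPase lid and base subunits held both ends of the range. Psmd2, the base scaffold that docks ubiquitin receptors and shuttle factors, had levels of 3.20 and 2.78 in germ cells, 1.12 and 0.781 in granulosa cells, 1.12 and 0.914 in stroma and 1.43 and 0.570 in immune cells. Its germ over granulosa ratio was log2 1.51 (1.44 to 1.60) and 1.82 (1.73 to 1.93), and its germ level was above that of each of these classes in both libraries. Psmd6, a lid subunit, was at 2.12 and 2.34 in germ cells and 1.11 and 0.640 in granulosa cells (log2 0.92 and 1.86). Psmd4, a ubiquitin receptor, was at 5.07 and 4.65 in germ cells and 1.92 and 1.66 in stroma (log2 1.39, 1.34 to 1.46, and 1.48, 1.44 to 1.53). Psmd7, a lid subunit paired with the deubiquitinase Psmd14, went the other way against granulosa cells and stroma. It was at 1.34 and 1.498 in germ cells, 2.14 and 2.10 in granulosa cells and 2.25 and 2.27 in stroma. Its germ over granulosa ratio was log2 -0.67 (-0.77 to -0.58) and -0.48 (-0.55 to -0.42), and germ over stroma -0.74 (-0.83 to -0.65) and -0.60 (-0.65 to -0.55). Psmd7 was the only member below granulosa cells in both libraries. This held with each cell given the same weight or with mitochondrial, ribosomal protein and haemoglobin genes left out of the denominator. Over immune cells its ratio was log2 -0.08 with the label MLT, and turned to 0.28 with equal cell weights and 0.004 with that denominator. With the label DEHP_MLT all 11 non-ATPase genes were higher in germ than in immune cells.

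The α ring, which gates entry to the core, was mixed. With the label MLT, 5 of 7 members were higher in germ than in granulosa cells, and with the label DEHP_MLT 7 of 7. The β ring had the same counts. Psma2 was at 4.86 and 4.75 in germ cells, 2.48 and 1.94 in granulosa cells and 1.97 and 1.93 in stroma, and so was higher in germ cells in all 4 of these comparisons (log2 0.96 and 1.28 over granulosa, 1.30 and 1.29 over stroma). Psma1 and Psma5 were not. Psma5 was at 1.12 and 1.12 in germ cells, 1.54 and 1.04 in granulosa cells and 2.05 and 1.64 in stroma, with germ over stroma at log2 -0.87 (-0.97 to -0.78) and -0.54 (-0.60 to -0.49). Psma1 was at 0.822 and 0.924 in germ cells and 1.14 and 0.849 in granulosa cells, log2 ratios of -0.47 and 0.12, so its direction differed between the libraries. As a ring, the 7 genes summed to log2 0.37 and 0.77 over granulosa cells, the smallest sums of the 4 subunit groups.

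In the β ring the 3 catalytic subunits were all higher in germ cells. Psmb6, the caspase-like site, was at 5.17 and 6.03 in germ cells against 2.84 and 2.44 in granulosa cells (log2 0.86 and 1.30). Psmb7, the trypsin-like site, was at 3.19 and 3.44 against 1.38 and 1.14 (log2 1.199 and 1.58). Psmb5, the chymotrypsin-like site, was at 3.45 and 3.86 against 2.55 and 2.06 (log2 0.43 and 0.90), short of 1.5-fold in the library labelled MLT. Of the structural β subunits, Psmb2 had the largest ratio, with levels of 4.36 and 4.74 in germ cells and 1.75 and 1.39 in granulosa cells (log2 1.32 and 1.76). Psmb1 and Psmb3 had the smallest, at -0.06 and 0.35 for Psmb1, while Psmb3 was at 1.95 in both classes of the library labelled MLT and higher by 0.45 in germ cells of the other, so the genes of the ring did not share 1 ratio.

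**Figure D2:**
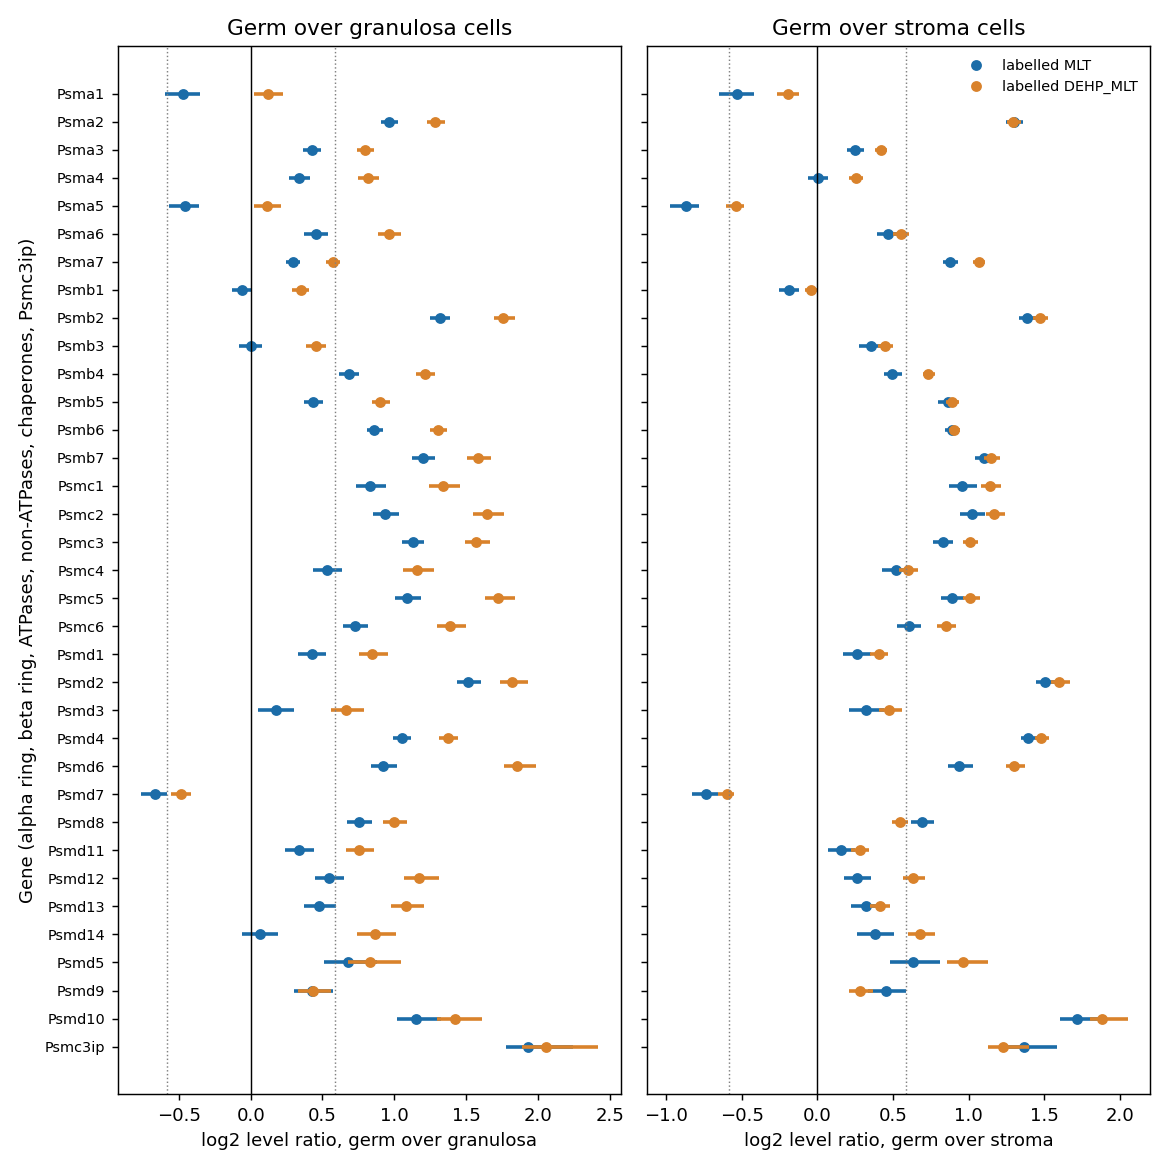
Log2 ratio of the level in germ cells to that in granulosa cells (left) and stromal cells (right) for the 35 genes past the minimum level, in rows ordered by role. Points are libraries, bars exact 95% counting intervals and dotted lines 1.5-fold; Psmc1 to Psmc6 lie right of 0 in every case, and Psmd7 lies left of it in every case.

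Over stroma, the summed log2 ratio in germ cells was 0.63 (0.62 to 0.65) and 0.76 (0.75 to 0.76). It was at least 1.5-fold for 18 of 35 members where 36.4% of genes were, and for 21 of 35 where 39.1% of genes were; 17 of 35 passed in both libraries, where 36.2% of genes did. At least 1.5-fold lower were 2 of 35 (Psma5 and Psmd7), where 29.1% of genes were, and 1 of 35 (Psmd7), where 27.6% were. The largest ratio was that of Psmd10, the base chaperone also called gankyrin, at 0.863 and 0.888 in germ cells and 0.256 and 0.234 in stroma (log2 1.71, 1.60 to 1.90, and 1.88, 1.80 to 2.05). Over immune cells the summed ratio was 0.39 (0.36 to 0.42) and 1.16 (1.11 to 1.22). There 16 of 35 members passed 1.5-fold, where 42.2% of genes did, and then 29 of 35, where 54.3% of genes did; 16 passed in both, where 42.2% of genes did. Lower by 1.5-fold were 2 of 35 (Psma1 and Psma5), where 26.3% of genes were, and 0 of 35, where 22.7% were. In the library labelled MLT the share was near the background, and the median of the members, 0.47, was close to the 0.35 of all genes. Psma1 had the lowest ratio in both, with levels of 0.822 and 0.924 in germ cells and 2.08 and 1.26 in immune cells (log2 -1.33, -1.53 to -1.15, and -0.44, -0.74 to -0.14). Psma5 followed at -1.10 (-1.28 to -0.94) and -0.05 (-0.36 to 0.27), and Psmb3 at -0.50 and 0.08. The highest were Psmc3ip (1.48), Psmd4 (1.25) and Psmd5 (1.25) in the library labelled MLT and Psmd2 (2.27), Psmd6 (2.02) and Psmc3ip (1.999, from 9 immune UMIs) in the other. These germ comparisons share the same germ cells within a library and are given side by side.

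The members outside the standard particle were also higher in germ cells, at low levels. Psmc3ip was at 0.530 (0.485 to 0.578) and 0.507 (0.486 to 0.528) in germ cells, 0.131 and 0.114 in granulosa cells, 0.20 and 0.211 in stroma and 0.183 and 0.119 in immune cells. Its germ over granulosa ratio, log2 1.93 (1.78 to 2.25) and 2.06 (1.89 to 2.42), was the largest in both libraries among the 35 genes past the minimum level. Psma8, the meiotic counterpart of Psma7 known from the testis, was at 0.201 (0.173 to 0.231) and 0.234 (0.220 to 0.248) in germ cells, from 193 and 1079 UMIs. In granulosa cells it was at 0.0155 and 0.0199 and in stroma at 0.0088 and 0.0132, from 22 to 34 UMIs. For scale, the germ gate genes Dazl, Sycp3 and Figla summed to 20.5 and 19.4 in germ cells and to 0.883 and 1.12 in granulosa cells, so germ transcripts were present at a low level in granulosa barcodes too. Psmb11, the thymic β subunit, had 9 and 32 UMIs in germ cells (levels of 0.00935 and 0.00694) and no more than 2 in granulosa, stroma or immune cells of either library.

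Genes that build and regulate the particle were counted from lists chosen by function. Of 6 assembly genes (Pomp, Psmg1 to Psmg4 and Ecpas), 4 and then 5 were at least 1.5-fold higher in germ than in granulosa cells and none lower, beside the 33.7% and 36.6% of all genes that were that much higher here and the 31.1% and 29.7% that were lower. Psmg1, a chaperone of the α ring, had the largest ratio of these, at 1.26 and 1.31 in germ cells and 0.318 and 0.266 in granulosa cells (log2 1.96 and 2.25). Of 6 further genes for 26S subunits and associated factors, 4 and then 5 were at least 1.5-fold higher. Among them Adrm1, a ubiquitin receptor of the base, was at 2.50 and 3.12 in germ cells and 0.777 and 0.819 in granulosa cells. Of the 4 genes for transcriptional control, 2 were at least 1.5-fold lower and none that much higher in either library. These were Nfe2l1, which drives proteasome genes when the particle is impaired, at 1.13 and 0.590 in germ cells and 2.50 and 1.45 in granulosa cells, and Nfe2l2, the oxidative stress factor, at 0.246 and 0.254 and at 2.21 and 1.54. This list is short, and 2 of 4 is not far from the share of all genes that were lower. The other lists were mixed. Of 5 regulators 2 were at least 1.5-fold higher, Psme3 (log2 0.85 and 0.73) and the inhibitor Psmf1 (1.05 and 1.13), and 2 lower, Psme1 (-2.44 and -2.34) and Psme2 (-0.94 and -1.02), in both libraries, with summed ratios of -0.93 and -0.58. Of the genes for Vcp and the shuttle factors that bring ubiquitinated proteins to the particle, 0 of 8 and then 0 of 7 were higher and 2 and then 1 lower, and of 6 ubiquitin genes 1 was higher, Ubb (0.91 and 1.16), and 0 lower. The inducible subunits were lower in germ cells: Psmb8 was at 0.201 and 0.0210 there, Psmb9 at 0.306 and 0.0158 and Psmb10 at 0.242 and 0.159. In granulosa cells they were at 1.05 and 0.0598, 0.471 and 0.0381, and 1.001 and 0.343. With the label DEHP_MLT only 1 of the 3, Psmb10, was past the minimum level.

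Among germ, granulosa, stromal and immune cells, the gap between the libraries in the summed level was widest in immune cells, then in granulosa cells, and small in germ cells and stroma. In granulosa cells the summed level was 54.0 and, with the label DEHP_MLT, 42.3, a log2 difference of -0.35 (-0.37 to -0.34). Of 34 members past the minimum level, 33 were lower in the library labelled DEHP_MLT, 6 of them by at least 1.5-fold, where 7.53% of 6875 genes were, and 0 were 1.5-fold higher, where 0.945% of genes were. The median of the members was -0.36 and that of all genes -0.14. The 6 were Psmd12, Psmd14, Psmd6, Psmc2, Psmc6 and Psmc5, all of the 19S cap, which supplied 6 ATPases and 11 non-ATPase subunits of the 34. The ATPases summed to 6.99 and 4.63 (log2 -0.59), the α ring to 16.1 and 12.7 (-0.34) and the β ring to 15.5 and 13.1 (-0.24). Psmd12, a lid subunit, was at 1.04 and 0.537 (log2 -0.95, -1.10 to -0.82), Psmd14, the lid deubiquitinase, at 0.817 and 0.459 (-0.82, -0.98 to -0.68) and Psmd6 at 1.11 and 0.640 (-0.79, -0.93 to -0.67). At the other end were Psmd9 at 0.596 and 0.632 (0.09, -0.05 to 0.23), Psmd7 at 2.14 and 2.10 (-0.03) and Psmb3 at 1.95 and 1.78 (-0.13).

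Other values moved with that difference in granulosa cells. Their median depth was 15376 and 23772 UMIs, and the gap widened with depth: it was log2 -0.11 (-0.15 to -0.06) between the shallow parts of the libraries (56.3 and 52.3), -0.25 (-0.28 to -0.22) between the middle parts (56.6 and 47.7) and -0.47 (-0.49 to -0.45) between the deep parts (52.9 and 38.2). The 5 surface epithelium markers summed to 1.65 and 3.11 per 10,000, the 4 neutrophil markers to 0.847 and 1.66, and the 4 erythroid gate markers to 0.0335 and 0.789, while the 4 granulosa check genes summed to 16.9 and 15.2. Their part in the result was not tested. With each cell given the same weight the log2 difference was -0.27, and with mitochondrial, ribosomal protein and haemoglobin genes left out of the denominator it was -0.20 (-0.22 to -0.18), which is over 1.5 times smaller on the log scale. In that scaling the median of all genes was 0.01 and that of the members -0.21, and 31 of 34 members were lower; Psmb3 and Psmd7 turned to 0.02 and 0.12. The ATPases were lower for 6 of 6 members in both scalings, by -0.49 and -0.44 in their sum. Cd74-low cells alone gave -0.33, but these still held Cd74 at 0.618 per 10,000 with the label MLT and at 0.039 with the label DEHP_MLT.

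In germ cells the summed level was 82.7 and 86.7 (log2 0.07, 0.06 to 0.08), and 0 of 36 members were 1.5-fold higher or lower, where 1.21% of genes were higher and 3.54% lower. The median log2 ratio of the members was 0.07, against -0.08 over all genes, and 30 of 36 members lay above the latter. The β ring was the only one of the 4 subunit groups whose members all lay on 1 side: 7 of 7 were higher in the library labelled DEHP_MLT, with summed levels of 24.3 and 28.0 (log2 0.20). This held with each cell given the same weight (0.25) and with the other denominator (0.24), under which the α ring was also higher for 7 of 7 (0.10). Other values differed between the germ cells of the libraries too: median depth was 7676 and 55572 UMIs, and neutrophil genes summed to 0.140 and 1.34, erythroid gate genes to 0.0145 and 0.587 and surface epithelium genes to 0.513 and 1.12. Their part in the result was not tested. Split by depth, the summed ratio of all members was 0.20, -0.05 and 0.10 from shallow to deep, so its direction turned in the middle part. Psmb4 was at 3.50 and 4.40 (0.33, 0.28 to 0.38), Psmb3 at 1.95 and 2.44 (0.32, 0.25 to 0.39) and Psmb6 at 5.17 and 6.03 (0.22, 0.18 to 0.26). The lowest were Psmd12 at 1.53 and 1.23 (-0.31, -0.40 to -0.23), Psmd2 at 3.20 and 2.78 (-0.20) and Psmd4 at 5.07 and 4.65 (-0.13), which turned to 0.04 with equal cell weights. Psma8 was at 0.201 and 0.234 and Psmc3ip at 0.530 and 0.507, both close between the libraries.

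In stroma the summed level was 53.3 and 51.3 (log2 -0.05, -0.06 to -0.04), and the other denominator turned its direction (0.04, 0.03 to 0.05). The median of the members was -0.04, against -0.11 over all genes, and 19 of 35 members lay above the latter. Only Psmd12 of 35 members was at least 1.5-fold lower, where 7.2% of genes were, at 1.27 and 0.787 (-0.69, -0.77 to -0.61), and 0 were that much higher, where 0.906% of genes were. It was followed by Psmd5 at 0.315 and 0.230 (-0.44) and Psma5 at 2.05 and 1.64 (-0.32). The β ring was again higher for 7 of 7 members, with sums of 14.9 and 16.1 (log2 0.11; 0.12 with equal cell weights and 0.21 with the other denominator), among them Psmb3 at 1.52 and 1.79 (0.23) and Psmb6 at 2.78 and 3.22 (0.21). Erythroid gate genes summed to 0.0298 and 0.654 and neutrophil genes to 0.190 and 0.902 in stroma, and their part in the result was not tested. The highest ratio was that of Psmd9, at 0.586 and 0.704 (0.26, 0.17 to 0.36). Psmd12 therefore had the lowest ratio of the members in germ cells, granulosa cells and stroma, and only Psma4 and Psmd2 were lower in immune cells; these 4 comparisons use the same pair of libraries.

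In immune cells the summed level was 63.0 and 38.7 (log2 -0.70, -0.76 to -0.64). Here 21 of 33 members were at least 1.5-fold lower in the library labelled DEHP_MLT, where 33.6% of 5940 genes were, and 0 were 1.5-fold higher, where 6.97% of genes were. The median was -0.75, against -0.36 over all genes. Psma4 was lowest, at 3.33 and 1.28 (-1.37, -1.70 to -1.06), then Psmd2 at 1.43 and 0.570 (-1.31, -1.83 to -0.85) and Psmd12 at 1.28 and 0.543 (-1.23, -1.76 to -0.75). The makeup of the class differed between the libraries: the neutrophil genes S100a8, S100a9, Ngp and Camp summed to 143 and 818 UMIs per 10,000 in it, the macrophage genes to 69.1 and 96.0 and the mast cell genes to 36.6 and 61.2, and their part in the result was not tested. Among barcodes with UMIs of at least 2 of the 3 C1q genes, 63 and 21 cells, the summed level was 68.7 and 51.5 (log2 -0.42, -0.50 to -0.34). In that subset 12 of 33 members were at least 1.5-fold lower, where 27.2% of genes were, and 1 higher, where 9.53% were; the median was -0.47, against -0.20 over all genes. Of the 4 genes for transcriptional control, 1 in germ cells, 2 in granulosa cells, 1 in stroma and 2 in immune cells were at least 1.5-fold lower. Among all genes, 3.54%, 7.53%, 7.2% and 33.6% were that much lower. Nfe2l1, the factor named above, was lower in each class. It was at 1.13 and 0.590 in germ cells (-0.92) and 2.50 and 1.45 in granulosa cells (-0.79). In stroma it was at 1.18 and 0.604 (-0.96) and in immune cells at 0.642 and 0.305 (-1.05). None of the 4 genes was 1.5-fold higher in any of these classes. In germ cells the summed level of the members was 82.7 and 86.7, and any link to Nfe2l1 was not tested. Fewer cells of a type and less RNA of these genes in each cell cannot be told apart in a summed level.

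**Figure D3:**
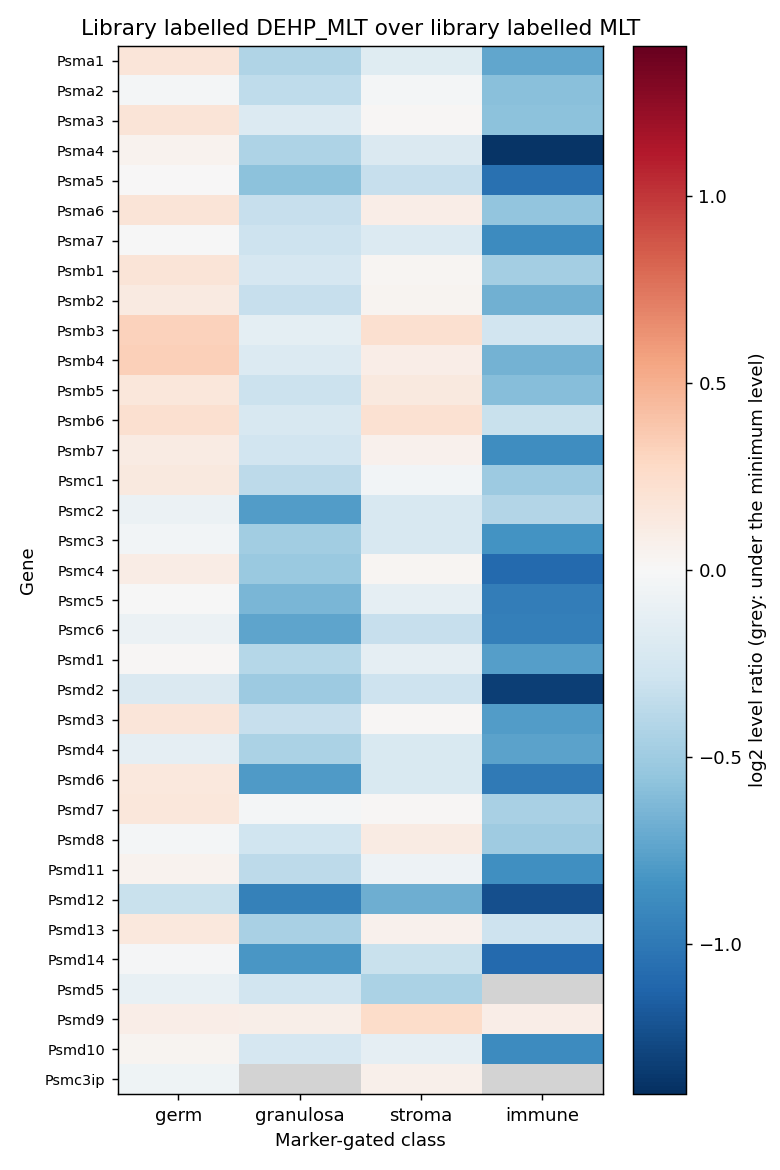
Log2 ratio of the level in the library labelled DEHP_MLT to that in the library labelled MLT for 35 genes (rows, by role) in 4 classes (columns); grey cells are under the minimum level. The granulosa and immune columns are blue for all but Psmd9, and the rows Psmb1 to Psmb7 are red in germ cells and stroma.

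Cd74 is the chaperone of MHC class II molecules, and the split by Cd74 asks whether the constitutive particle differs along with it. A cell was Cd74-high from 3 Cd74 UMIs and 5 per 10,000 UMIs. The library labelled DEHP_MLT had 0 such cells among its germ, granulosa and stromal cells and 4 among its immune cells, so the split was made in the library labelled MLT alone. There 77 of 706 granulosa cells, 302 of 2297 stromal cells and 23 of 168 immune cells were Cd74-high, and 2 of 284 germ cells, too few to compare. Near the threshold, between 2 and 10 per 10,000, lay 117 granulosa, 231 stromal and 28 immune cells, so the sides depend on where it is set. Whether the cells form a range or separate types was not tested.

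The constitutive genes were close between Cd74-high and Cd74-low cells. The summed level was 58.0 (57.1 to 59.0) in Cd74-high and 53.3 (52.9 to 53.7) in Cd74-low granulosa cells (log2 0.12, 0.10 to 0.15), and 56.0 (55.2 to 56.7) and 52.9 (52.6 to 53.2) in stroma (0.08, 0.06 to 0.10). The size depends on the settings: the granulosa ratio was 0.053 with a Cd74 threshold of 2 and 0.22 with 10 per 10,000, and the stromal ratio 0.042 with the other denominator. None of 34 members was 1.5-fold apart in either class, where 3.26% of genes in granulosa cells and 4.74% in stroma were at least 1.5-fold higher and 1.84% and 2.59% lower. The medians of the members were 0.07 and 0.02, against -0.03 and -0.05 over all genes.

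The small excess lay in the α ring. It was higher in Cd74-high cells for 6 of 7 members in granulosa cells and 7 of 7 in stroma, with summed log2 ratios of 0.27 and 0.28, while the β ring gave 0.12 and 0.06 and the ATPases 0.02 and -0.05. With equal cell weights the α ring gave 0.14 and 0.25 (5 of 7 and 7 of 7 higher) and with the other denominator 0.24 and 0.24 (6 of 7 and 5 of 7), so in granulosa cells its lead over the β ring, then at 0.12, was small. Psma5 was at 2.05 in Cd74-high and 1.45 in Cd74-low granulosa cells (log2 0.50, 0.36 to 0.64) and at 2.57 and 1.97 in stroma (0.38, 0.28 to 0.49). Psma7 was at 5.43 and 4.30 in granulosa cells (0.33, 0.25 to 0.42) and 3.98 and 2.82 in stroma (0.49, 0.41 to 0.58). Psma2 was at 3.10 and 2.38 (0.38, 0.27 to 0.50) and at 2.37 and 1.91 (0.31, 0.21 to 0.42). These were the 3 highest members in each class. Psmd6 was among the 3 lowest in both, at 0.914 and 1.15 in granulosa cells (-0.33, -0.54 to -0.13) and 0.942 and 1.13 in stroma (-0.26, -0.43 to -0.10). The other low members were Psmb1 (-0.09) and Psmc6 (-0.08) in granulosa cells and Psmc5 (-0.28) and Psmd2 (-0.18) in stroma.

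In immune cells the summed level was 70.8 (67.8 to 73.8) in 23 Cd74-high and 61.3 (59.9 to 62.6) in 145 Cd74-low cells (log2 0.21, 0.14 to 0.28). Of 34 members 5 were at least 1.5-fold higher, where 19.7% of genes were, and 0 lower, where 17.8% were. Psma4 was at 5.02 and 2.95 (0.77, 0.49 to 1.04), Psma5 at 3.60 and 2.15 (0.74, 0.42 to 1.07) and Psmd10 at 0.628 and 0.375 (0.73, -0.10 to 1.53). The lowest were Psmc5 (-0.37, -0.96 to 0.18), Psmb6 (-0.26, -0.64 to 0.10) and Psmd12 (-0.23, -0.81 to 0.30), whose intervals all hold 0; Psmd12 turned to 0.21 with equal cell weights. Neutrophil genes summed to 0.562 in the Cd74-high and 176 in the Cd74-low cells and macrophage genes to 102 and 61.6, so the sides of the split held different cells.

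The inducible subunits, set beside their constitutive counterparts, differed far more, and Psmb5 and Psmb8 show it for 1 catalytic site. Whether the sites printed above have a part in these levels was not tested. In granulosa cells Psmb8 was at 4.68 in Cd74-high and 0.416 in Cd74-low cells (log2 3.46), while Psmb5 was at 2.63 and 2.54 (0.05). Psmb9 was at 1.90 and 0.221 (3.04) while Psmb6 was at 3.09 and 2.80 (0.15), and Psmb10 was at 3.56 and 0.553 (2.66) while Psmb7 was at 1.36 and 1.39 (-0.03). In stroma Psmb8, Psmb9 and Psmb10 had ratios of 3.49, 3.62 and 2.89, and Psmb5, Psmb6 and Psmb7 of -0.06, 0.05 and -0.09. The transcripts of the constitutive catalytic subunits were thus at nearly the same level on both sides of the split. Psme1 and Psme2, which form the 11S activator that caps the immunoproteasome, were higher by log2 1.55 and 1.62 in granulosa cells and 2.11 and 1.56 in stroma. Of the assembly genes, Psmg4 was higher by 0.60 and 0.77 and Pomp, the maturation factor of the core, by 0.57 and 0.37; only Psmg4 passed 1.5-fold.

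**Figure D4:**
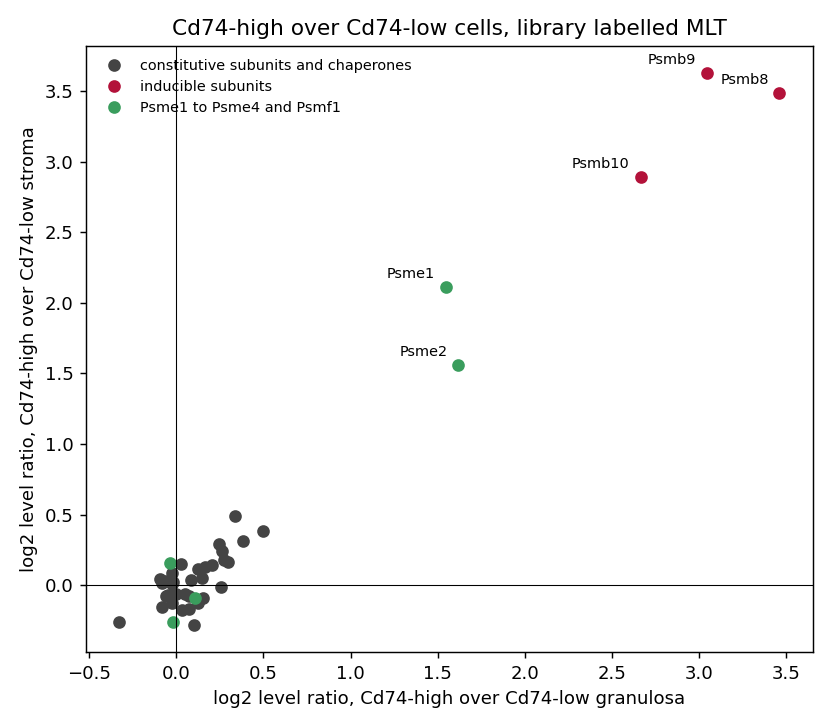
Log2 ratio of the level in Cd74-high to Cd74-low cells of the library labelled MLT, in granulosa cells (x axis) and stroma (y axis), 1 point a gene past the minimum level in both. Constitutive genes lie between -0.33 and 0.50 on both axes, and Psmb8, Psmb9 and Psmb10 lie above 2.6.

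Markers of other cells moved little with the split in stroma and more in granulosa cells. The 5 macrophage genes (C1qa, C1qb, C1qc, Csf1r, Lyz2) summed to 0.329 in Cd74-high and 0.207 in Cd74-low granulosa cells, and to 0.213 and 0.183 in stroma, against 69.1 in immune cells of the same library. The surface epithelium genes summed to 3.19 and 1.38 and the neutrophil genes to 4.55 and 0.199 in granulosa cells, and to 0.440 and 0.445, and 0.230 and 0.184, in stroma. The granulosa gate genes Fst, Hsd3b1, Inha and Aard summed to 12.1 in Cd74-high and 16.3 in Cd74-low granulosa cells. The cycling genes Mki67, Top2a, Ube2c and Birc5 summed to 1.42 and 2.34 there and to 6.92 and 8.81 in stroma. The stroma gate genes summed to 8.49 and 8.97 in stroma. The part of all these markers in the values of the split was not tested. Cd74-high granulosa cells were deeper, with a median of 23407 against 15071 UMIs; in stroma the medians were 11246 and 10759.

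Expressed as the inducible share of each pair's UMIs, Psmb8 made up 64.1% (61.8 to 66.3) of Psmb8 and Psmb5 in Cd74-high and 14.1% (13.1 to 15.2) in Cd74-low granulosa cells, with exact Clopper-Pearson intervals. For Psmb9 and Psmb6 the shares were 38.0% and 7.33%, and for Psmb10 and Psmb7 72.4% and 28.5%. In stroma they were 74.7% and 19.8%, 53.0% and 8.38%, and 75.3% and 27.6%. In the library labelled DEHP_MLT the same shares were 2.82%, 1.54% and 23.0% in granulosa cells and 3.11%, 1.30% and 19.5% in stroma, below the Cd74-low cells of the library labelled MLT in each pair. Germ cells were low in both libraries, at 5.50%, 5.58% and 7.06% and at 0.541%, 0.262% and 4.42%. Immune cells were at 76.3%, 46.9% and 64.5% and at 63.2%, 27.6% and 47.7%. Each UMI counts 1 captured 3′ end, so these shares need no length scaling, but capture may differ between the genes of a pair, and shares should be compared between cells rather than between pairs.

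**Figure D5:**
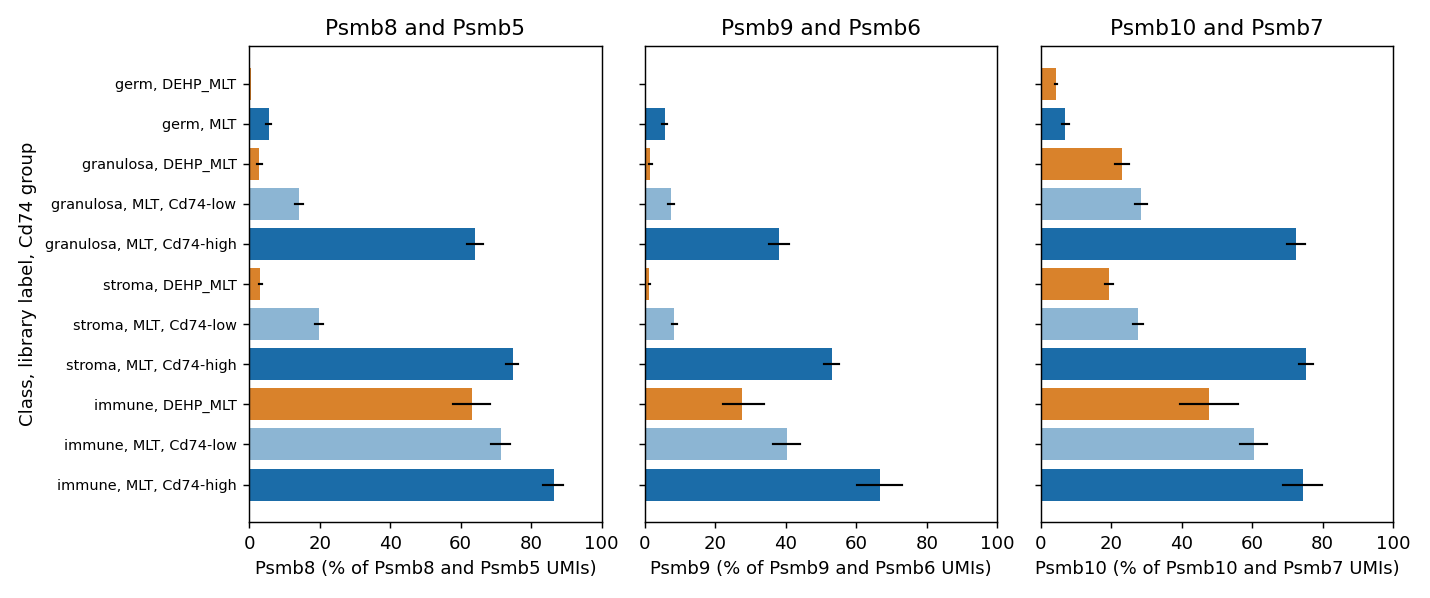
Share of the inducible gene in the UMIs of each catalytic pair (x axis, percent) by class, library and Cd74 group (y axis); lines are exact Clopper-Pearson 95% intervals. Orange bars are the library labelled DEHP_MLT and blue bars the library labelled MLT, pale for Cd74-low cells; the Cd74-high granulosa bars reach 64.1%, 38.0% and 72.4%.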

How the data were processed

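Per the submitters' processing notes, the authors used Cell Ranger and Seurat 4.2.0 with the mm9 build; the Cell Ranger version and annotation are not given in the sources used here. The authors deposited 1 table of raw UMI counts per gene and barcode for each library, and these counts were used as deposited. Kept barcodes had 500 or more genes detected and no more than 20% of UMIs from mitochondrial genes. A barcode passed a class gate where its markers summed to at least 0.2 of the 99th percentile and at least 2 markers had a UMI; 7 gates were used, and barcodes passing exactly 1 were kept. No doublet caller was run, so doublets of like cells remain. Counts were summed per class and library, scaled to 10,000 UMIs and given exact Poisson intervals; ratios of single genes were taken after adding 0.01 per 10,000, over genes with a mean of at least 0.2, and have conditional binomial intervals. Members, lists and gates were chosen with earlier results of these data known. Full values are given for the 3 highest and 3 lowest ratios of a comparison, the catalytic pairs, Psma8, Psmb11 and Psmc3ip. Scripts (numpy 2.4.6, scipy 1.17.1, pandas 2.3.3) were tested on simulated data. The closing section gives 9 alternatives and 5 more chosen after seeing the data.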

Additional observations from a re-analysis of the deposited data

Results flagged for a closer look

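The ratio of the library labelled DEHP_MLT to the library labelled MLT pointed in opposite directions in germ cells and in the other 3 classes. Germ minus granulosa was a difference of 0.42 in the log2 ratios, germ minus stroma 0.12 and germ minus immune 0.77. With 1 library a group none of these differences was tested. The germ and stroma ratios had the same sign, 0.11 and 0.04, with mitochondrial, ribosomal protein and haemoglobin genes left out of the denominator, and germ cells of middle depth gave -0.048. Set against the median of all genes, stroma sided with germ cells. The member median was above it in germ cells (0.07 against -0.08) and stroma (-0.04 against -0.11). It was below in granulosa cells (-0.36 against -0.14) and immune cells (-0.75 against -0.36).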

How the results depend on the processing

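No paired analysis was possible because each group is 1 library. Germ cells stayed above granulosa cells under every alternative run. In the library labelled MLT the log2 ratio was 0.53 with each cell weighing the same and 0.75 in germ barcodes without a granulosa gate UMI. In the library labelled DEHP_MLT it was 0.88 with equal cell weights, 1.08 with a looser and 1.06 with a stricter marker gate, 0.94 without mitochondrial, ribosomal protein and haemoglobin genes in the denominator, and 1.13 in germ barcodes without a granulosa gate UMI.

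Between the libraries, the germ ratio was 0.083 with equal cell weights, 0.083 with the looser gate and 0.11 with the other denominator. The granulosa ratio was -0.27 with equal weights, -0.38 with the looser and -0.40 with the stricter gate, -0.20 with the other denominator and -0.33 in Cd74-low cells. The stromal ratio turned to 0.039 with the other denominator and was -0.042 in Cd74-low cells. The cause was not tested. In both classes, Cd74-low cells with the label MLT still held more Cd74 than those with the label DEHP_MLT. The immune ratio was -0.80 in barcodes of at least 7000 UMIs and -0.42 in C1q-positive barcodes. Split by depth, from shallow to deep, the ratios were 0.20, -0.048 and 0.10 in germ cells and -0.11, -0.25 and -0.47 in granulosa cells, -0.041 and -0.066 in the middle and deep parts of stroma and -0.81 and -0.50 in the shallow and middle parts of immune cells; why the germ ratio turned was not tested.

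Cd74-high over Cd74-low granulosa cells gave 0.083 with equal weights, 0.17 and 0.15 with the looser and stricter gates, 0.10 with the other denominator, and 0.053 and 0.22 with Cd74 thresholds of 2 and 10 per 10,000. Stroma gave 0.042 with the other denominator and 0.12 with the threshold of 10. Immune cells gave 0.34 with equal weights, 0.10 from 7000 UMIs and 0.31 with the stricter gate; under 20 immune cells passed the threshold of 10, so no value is given. In granulosa cells 1 of 34 members was at least 1.5-fold higher with the looser gate. In stroma 1 of 35 was that much lower with the other denominator and 1 of 37 with no minimum level. In immune cells 8 of 33 were higher with equal weights and 3 of 34 from 7000 UMIs. There 8 of 33 were higher with the stricter gate and 3 of 31 among standard subunits alone. In the main setting 3.26% of genes were higher in granulosa cells, 2.59% lower in stroma and 19.7% higher in immune cells. No such share is given for the other settings, so these counts are not read as a result about the members. The inducible shares in Cd74-high granulosa cells were 59.9% (Psmb8) and 68.0% (Psmb10) with the threshold of 2, and 66.6%, 40.9% (Psmb9) and 76.7% with that of 10.

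Libraries were not replicated, levels of few UMIs are imprecise, and free RNA and doublets were not removed.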
